A study of Mus musculus with 21 samples.

Results

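The response of CD11b+ peritoneal cells to CpG DNA was measured by RNA sequencing in 12 of the 21 libraries of the series. The members are all 7 libraries given CpG and 5 of the 7 given no stimulus. The other 2 unstimulated libraries, the untreated one labelled Lum-/- and the biglycan-alone one labelled Bgn-/-, were left out because of their low read number; the correlation between their profiles was 0.979, against a median of 0.933 over all pairs of libraries and a highest value of 0.991 in any other pair. Cells were lavaged from the peritoneal cavities of unelicited C57BL/6 mice (10 mice per the labels, pooled or not is not stated), selected for CD11b, an integrin of myeloid cells, and cultured overnight in medium with 1% stripped serum. All libraries share this preparation. CpG was given at 1 µM for 6 h in serum-free medium. The 7 CpG libraries came from cells labelled Lum-/- (lumican knockout) with no protein or lumican, cells labelled Bgn-/- (biglycan knockout) with no protein or biglycan, and wild-type cells with no protein, lumican or biglycan. The 5 unstimulated libraries came from cells labelled Lum-/- with lumican alone, cells labelled Bgn-/- left untreated, and wild-type cells left untreated or given lumican or biglycan alone. Recombinant protein was given at 10 µg/mL, 1 h before CpG; no dose or time is stated for protein alone. Lumican and biglycan are small proteoglycans of the extracellular matrix. There is 1 library for each genotype given a protein and stimulus, and the labels do not tie libraries to animals. A genotype therefore cannot be told apart from its cell preparation, and p-values measure the spread between these libraries only.

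CpG DNA is sensed by TLR9, a receptor that sits in endosomes. UNC93B1 carries TLR9 there from the endoplasmic reticulum, and acid proteases cut it into its signalling form. The adaptor MYD88 then recruits IRAK kinases and TRAF6, which turn on NF-kB, MAP kinases and interferon regulatory factors. In macrophages TLR9 is known for inducing cytokines, and in B cells for driving growth and immunoglobulin class switching.

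Promoter windows of 6 genes are printed as examples from lists whose members moved together below. They were picked only among windows that hold the named letters, so the matches in them were fixed by that choice. Each runs from 250 bases before to 50 bases after a RefSeq gene start (build GRCm38.p6), 5′ to 3′ on the gene's strand, with matches to the named letters in capitals on either strand.
Nop2 (chr6:125131633-125131932, plus strand, CACGTG in capitals): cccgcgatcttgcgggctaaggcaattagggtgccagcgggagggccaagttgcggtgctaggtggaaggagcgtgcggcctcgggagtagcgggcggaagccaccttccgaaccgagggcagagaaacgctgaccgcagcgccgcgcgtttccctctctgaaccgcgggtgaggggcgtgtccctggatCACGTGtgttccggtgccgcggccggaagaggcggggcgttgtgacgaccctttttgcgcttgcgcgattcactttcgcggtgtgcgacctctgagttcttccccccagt
Mcm5 (chr8:75109259-75109558, plus strand, TTNGCGC in capitals): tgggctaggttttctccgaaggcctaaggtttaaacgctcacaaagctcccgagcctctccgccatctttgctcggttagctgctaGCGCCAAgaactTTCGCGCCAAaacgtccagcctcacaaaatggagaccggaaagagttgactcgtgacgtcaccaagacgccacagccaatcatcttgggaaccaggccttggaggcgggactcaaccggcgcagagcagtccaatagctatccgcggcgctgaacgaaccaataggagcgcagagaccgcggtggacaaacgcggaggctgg
Nfkbia (chr12:55492598-55492897, minus strand, GGNNTTTCC in capitals): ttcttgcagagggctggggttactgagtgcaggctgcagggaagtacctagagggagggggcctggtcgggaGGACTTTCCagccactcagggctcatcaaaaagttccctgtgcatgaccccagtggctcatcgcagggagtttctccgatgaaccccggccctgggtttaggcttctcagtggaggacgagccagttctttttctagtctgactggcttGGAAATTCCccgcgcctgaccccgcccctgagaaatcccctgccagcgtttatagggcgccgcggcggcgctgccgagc
Isg15 (chr4:156200769-156201068, minus strand, GAAANNGAA in capitals): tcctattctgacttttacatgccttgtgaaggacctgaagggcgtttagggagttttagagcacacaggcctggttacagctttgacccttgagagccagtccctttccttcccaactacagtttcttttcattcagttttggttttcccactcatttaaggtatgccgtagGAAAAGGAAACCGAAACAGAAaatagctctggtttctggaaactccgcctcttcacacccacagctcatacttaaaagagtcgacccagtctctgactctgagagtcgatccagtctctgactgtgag
Hmgcs1 (chr13:119690101-119690400, plus strand, CCAAT in capitals): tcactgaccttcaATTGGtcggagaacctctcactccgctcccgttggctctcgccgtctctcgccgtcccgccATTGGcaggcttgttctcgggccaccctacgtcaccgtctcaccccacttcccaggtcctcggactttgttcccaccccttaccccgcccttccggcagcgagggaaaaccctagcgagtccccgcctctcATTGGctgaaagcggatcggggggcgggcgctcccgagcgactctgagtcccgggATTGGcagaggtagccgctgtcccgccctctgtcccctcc
Ctsd (chr7:142387778-142388077, minus strand, TCACGTGA in capitals): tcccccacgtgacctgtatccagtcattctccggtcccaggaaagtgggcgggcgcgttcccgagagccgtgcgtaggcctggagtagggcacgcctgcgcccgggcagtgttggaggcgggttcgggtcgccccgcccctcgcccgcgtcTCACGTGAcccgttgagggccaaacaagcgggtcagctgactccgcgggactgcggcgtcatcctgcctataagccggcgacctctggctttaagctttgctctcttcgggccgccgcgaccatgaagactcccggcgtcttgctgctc
A match to these letters is a description of the window and not a shown binding site. The E-box CACGTG, known as a MYC site, stood in 7 of 28 windows of the ribosome biogenesis list (25%), against 10.04% of the 11342 windows of all genes tested and 7.15% of all 32851 windows. The E2F-type letters TTNGCGC stood in 12 of 33 windows of the DNA replication list (36.4%), against 10.9% for genes tested and 6.36% for all windows. The letters GGNNTTTCC, part of the kappaB motif, stood in 10 of 25 windows of the NF-kB list (40%), against 6.23% for genes tested and 5.82% for all. The letters GAAANNGAA, from the interferon response element, stood in 21 of 36 windows of interferon-stimulated genes (58.3%), against 7.36% for genes tested and 8.56% for all. The CCAAT box stood in 16 of 20 windows of cholesterol synthesis genes (80%), against 37.8% for genes tested and 37.4% for all. The sterol element letters TCACNCCAC stood in 1 of those 20 (5%), against 1.13% for genes tested and 1.24% for all. The letters TCACGTGA, which contain CACGTG and are known from lysosomal promoters, stood in 6 of 30 windows of the lysosome list (20%), against 1.84% for genes tested and 0.974% for all. Windows of alternative starts of a gene can overlap, and 17 to 30 genes of each list had a window.

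The 12 libraries held an estimated 13.8 to 21.1 M reads, against 2.31 and 2.47 M in the 2 left out. Saa3, an acute-phase gene, alone took 49288 to 111728 TPM in each library (TPM is a gene's length-corrected share of all transcripts in its library). The targeted genes were not lower in the libraries labelled knockout: Lum lay between 1.17 and 3.93 TPM in the 3 libraries labelled Lum-/-, against 0 to 0.354 TPM in the 6 wild-type ones, and Bgn between 0.948 and 3.49 TPM in the 3 labelled Bgn-/-, against 0.442 to 1.52 TPM in wild type. The genotypes are therefore given as labelled, and no direction below is drawn from them. Itgam, which encodes CD11b, lay between 421 and 559 TPM in the CpG libraries (median 458), against 412, 439.6, 459, 489 and 596 TPM in the unstimulated libraries. The eosinophil peroxidase gene Epx was at 0 in all 12 libraries. The wild-type untreated library stood apart from the other 5 wild-type ones: the mast cell proteases Cma1 and Mcpt4 were at 1.03 and 0.462 TPM there, against at least 20.5 and 11.7 TPM in the others. The libraries labelled knockout had 1.17 to 3.55 TPM of Cma1 and 0.612 to 1.39 TPM of Mcpt4, near the values of the wild-type untreated one. Its label was not tested further, and within-label differences in wild type rest on it in part. In these bulk libraries, fewer cells of a type and less RNA per cell cannot be told apart. Summed T cell genes lay between 11.7 and 21.8 TPM with CpG and between 17.1 and 29.3 TPM without. Of 5 tested T cell genes, 1 was called lower and none higher, with a median log2 difference of -0.0034. The called gene was Cd2, at 1.39 to 2.65 TPM with CpG and 4.49 to 7.30 TPM without. Summed fibroblast genes lay between 4.14 and 8.98 TPM with CpG and between 1.59 and 7.79 TPM without. Summed neutrophil genes lay between 392 and 439 TPM with CpG and between 460.2 and 751 TPM without. Of 4 tested neutrophil genes, 2 were called higher and 2 lower. On the log2 scale S100a8 rose by 0.33 and Camp by 0.59, while Csf3r fell by 0.69 and Mmp8 by 0.94. The defining neutrophil gene Ly6g was at 0 in 11 of the 12 libraries.

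Genes of growth and biosynthesis were higher with CpG, and genes of lysosomes and of resident macrophages were lower. Of 11838 genes that averaged 1 TPM or more, 4608 (38.9%) passed an adjusted p under 0.05 (limma on log2(TPM + 1), genotype as block). CpG raised 1935 genes (16.3%) and lowered 2673 (22.6%). These shares are the background for every count of called list members against unstimulated cells below, and no list was tested as a set. Most changes were small: 180 genes rose and 99 fell by more than 2-fold. In 1994 genes (16.8%), every library of one group lay above every library of the other, with CpG higher in 827 and lower in 1167. Of the called genes, 4494 had the same sign in all 3 genotype labels and 3982 in all 5 pairs of libraries matched for genotype and protein. The median of all genes was -0.04 on the log2 scale. After median-of-ratios scaling it was 0.00, and 2434 genes rose and 2266 fell, so the balance of rises and falls depends on the scaling. Without the wild-type untreated library 4929 genes were called.

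**Figure D1:**
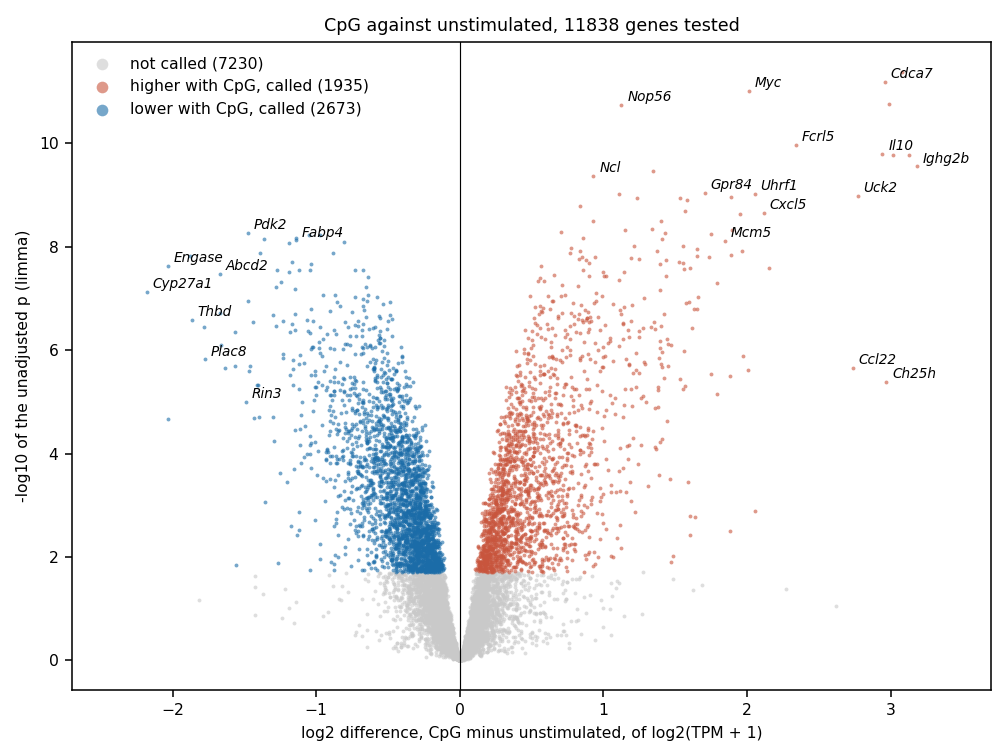
Log2 difference of each of the 11838 tested genes, CpG minus unstimulated (x axis, log2(TPM + 1) scale), against -log10 of its unadjusted limma p (y axis). Red points are the 1935 genes called higher with CpG and blue points the 2673 called lower; the largest rises pass 3 on the log2 scale, while the largest fall among the named genes, Cyp27a1, is at -2.18.

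Among genes at 10 TPM or more, the largest rise was in an immunoglobulin gene and the next in a cyclin. Ighg2b, a constant region of IgG heavy chains, lay between 15.95 and 28.01 TPM in the CpG libraries (median 20.8), against 0.7697, 1.05, 1.38, 2.21 and 2.31 TPM in the unstimulated libraries. Ccnd2 (chromosome 6, 127125162 to 127152193, minus strand), a D-type cyclin that moves cells into the cell cycle, lay between 17.1 and 29.01 TPM in the CpG libraries (median 22.9), against 1.37, 1.44, 1.496, 1.96 and 2.82 TPM in the unstimulated libraries. The lowest CpG library stood far above the highest unstimulated one in both genes. Il10 (chromosome 1, 131019845 to 131024974, plus strand), an anti-inflammatory cytokine, lay between 15.8 and 20.997 TPM in the CpG libraries (median 19.2), against 0.7400, 0.989, 1.502, 2.27 and 2.37 TPM in the unstimulated libraries, a log2 difference of 2.94 ± 0.14, adjusted p = 2.22e-07. Myc (chromosome 15, 61985391 to 61990374, plus strand), the transcription factor that drives growth genes, lay between 19.1 and 29.1 TPM in the CpG libraries (median 25.3), against 4.55, 4.73, 4.88, 5.74 and 7.303 TPM in the unstimulated libraries, a log2 difference of 2.01 ± 0.08, adjusted p = 3.77e-08. Il10 and Myc were each similar in all CpG libraries, with no overlap between the groups. Ch25h (chromosome 19, 34473778 to 34475164, minus strand), the enzyme that makes 25-hydroxycholesterol, spread far more widely, at 108 and 109 TPM with CpG in cells labelled Lum-/-, 7.37 and 6.897 TPM in those labelled Bgn-/- and 31.5 to 44.8 TPM in wild type. Without a stimulus, Ch25h was at 10.7 TPM in cells labelled Lum-/-, 1.396 TPM in those labelled Bgn-/- and 0.562 to 7.25 TPM in wild type. The groups overlapped over all labels, but CpG libraries were higher within each label (2.97 ± 0.37, adjusted p = 0.000104). Other rises among the 20 largest were the chemokine gene Ccl22 (59.03 ± 20.03 TPM with CpG and 9.01 ± 5.05 TPM without), the neutrophil chemokine gene Cxcl5 (64.7 ± 25.8 TPM with CpG and 15.2 ± 5.71 TPM without), the uridine kinase gene Uck2 (14.3 ± 3.52 TPM with CpG and 1.22 ± 0.4305 TPM without) and Ccr7, a homing receptor of lymphocytes and dendritic cells (49.99 ± 5.02 TPM with CpG and 13.4 ± 5.12 TPM without; all SD, n = 7 and 5). Upp1, the uridine phosphorylase gene, rose by 1.89 ± 0.14 on the log2 scale (adjusted p = 3.09e-06), and Pim2, a survival kinase gene, by 1.95 ± 0.12 (adjusted p = 1.13e-06). Gpr84, a receptor for medium-chain fatty acids, rose by 1.70 ± 0.10 (adjusted p = 7.15e-07).

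**Figure D2:**
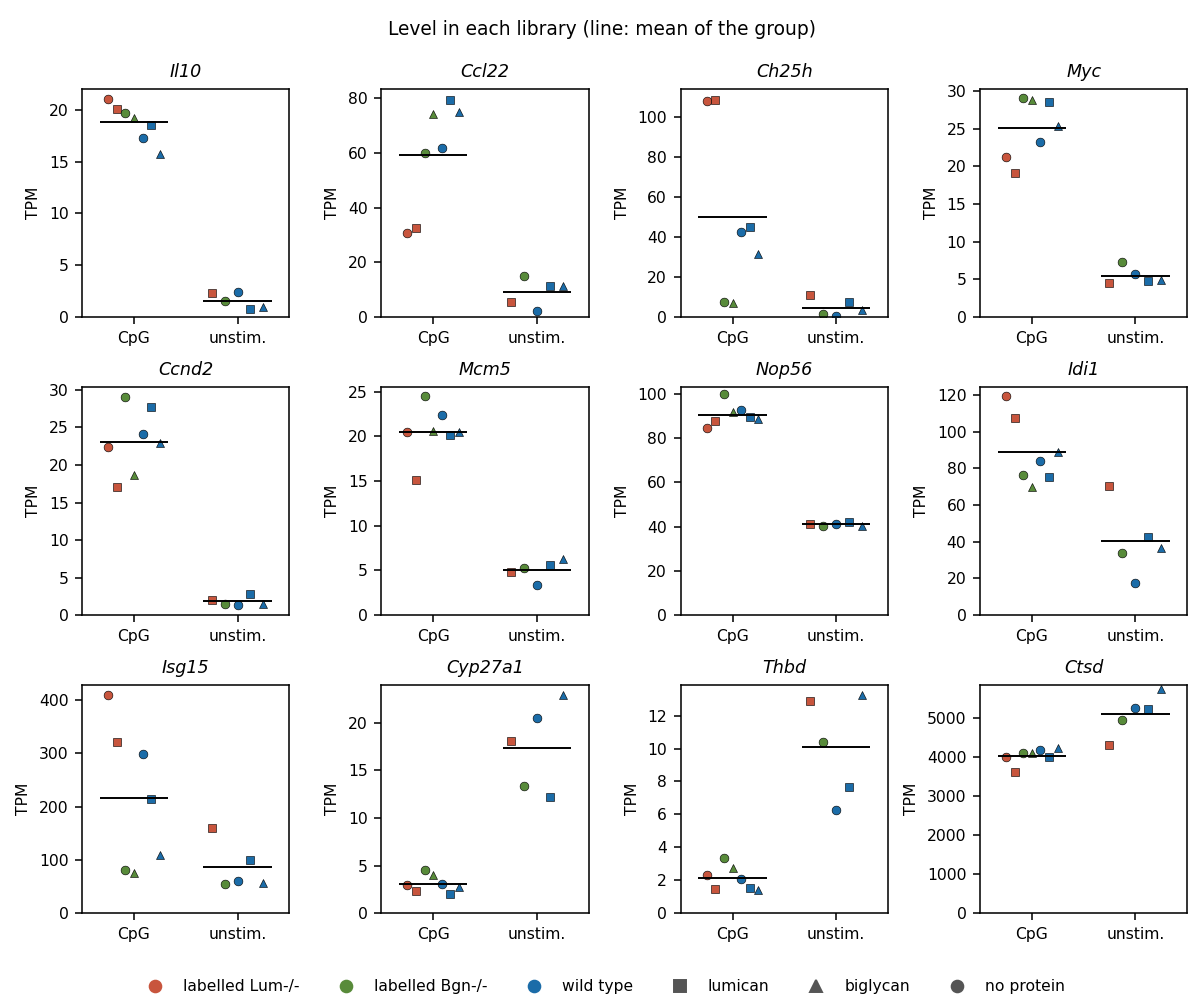
TPM (y axis, from 0) of 12 genes in each of the 7 CpG libraries (left) and 5 unstimulated libraries (right), with a line at each group's mean; colour gives the genotype label and shape the added protein. Il10, Ccl22, Myc, Ccnd2, Mcm5 and Nop56 are higher in every CpG library, Cyp27a1, Thbd and Ctsd are lower in every CpG library, and Ch25h, Idi1 and Isg15 overlap between the groups.

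The receptor gene Tlr9 (chromosome 9, 106222598 to 106226883, plus strand) rose. Of 28 tested genes on the list of its signalling and endosomal genes, Tlr9 included, 6 rose and 12 fell. Tlr9 lay between 2.99 and 4.96 TPM in the CpG libraries (median 4.19), against 1.98, 2.17, 2.18, 2.696 and 3.04 TPM in the unstimulated libraries, a log2 difference of 0.64 ± 0.10, adjusted p = 0.00064. All but the lowest CpG library lay above every unstimulated one. Unc93b1, the chaperone that delivers TLR9 to endosomes, lay between 382 and 459.6 TPM in the CpG libraries (median 405), against 465, 502, 509.7, 519 and 709.8 TPM in the unstimulated libraries (-0.38 ± 0.10, adjusted p = 0.00918). Every CpG library was lower in Unc93b1, and the highest unstimulated value was that of the wild-type untreated library. Among all genes, 16.3% rose and 22.6% fell. The rises on the list beside Tlr9 were genes of the signalling steps after the receptor. Of these, Traf6 and Irf7 passed narrowly (limma adjusted p = 0.049 and adjusted p = 0.0404). Leaving out 1 library left 4 to 6 rises and 11 to 14 falls on the list, and in wild type alone 1 rose and 7 fell. The falls were mainly other endosomal receptors and genes of TLR transport, lysosomes or endosomes, with fewer signalling genes. Myd88, the adaptor, rose by 0.33 ± 0.07 (adjusted p = 0.00362), and Irak4, the first kinase, fell by 0.24 ± 0.07 (adjusted p = 0.0172). Among the falls, Lgmn, a lysosomal protease that cuts TLR9, had 242 ± 33.5 TPM with CpG and 401 ± 38.7 TPM without and Pld4, an exonuclease of endosomes, 30.3 ± 4.43 TPM with CpG and 56.9 ± 14.2 TPM without (SD, n = 7 and 5). Tlr8, another endosomal nucleic acid receptor, fell by 1.00 ± 0.13 (adjusted p = 0.000151). Of 12 tested surface receptors and co-receptors, 1 rose and 3 fell. Tlr4, the LPS receptor, had 44.1 ± 3.74 TPM with CpG and 45.4 ± 9.55 TPM without, and Cd14, its co-receptor, 858 ± 128 TPM with CpG and 751 ± 178 TPM without, neither called. Cd180, a TLR4 relative, fell by 0.52 ± 0.08 (adjusted p = 0.000434) and Ticam2, an adaptor of TLR4, by 0.80 ± 0.08 (adjusted p = 3.31e-05).

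Genes of DNA replication and of ribosome making rose almost as whole lists. Of 33 tested replication genes, 29 rose and none fell, with a median log2 difference of 0.81. In 22 of the 33, every CpG library lay above every unstimulated one, against 827 of all 11838 genes tested. Mcm5, a subunit of the replicative helicase, lay between 15.2 and 24.5 TPM in the CpG libraries (median 20.5), against 3.37, 4.83, 5.24, 5.59 and 6.28 TPM in the unstimulated libraries. Mcm2 had 13.2 ± 2.199 TPM with CpG and 4.45 ± 0.378 TPM without and Mcm4 16.1 ± 2.24 TPM with CpG and 7.81 ± 0.9600 TPM without (SD, n = 7 and 5). Cdca7, which acts in DNA methylation during replication, rose by 2.96 ± 0.11 (adjusted p = 3.77e-08), Uhrf1, which copies methylation to the new strand, by 2.05 ± 0.12 (adjusted p = 7.15e-07), and Dut, which clears dUTP, by 1.89 ± 0.11 (adjusted p = 7.15e-07). Mcm3, a further helicase subunit, had 31.2 ± 3.51 TPM with CpG and 17.4 ± 1.19 TPM without (SD, n = 7 and 5). Of 24 tested genes of mitosis, 14 rose and none fell; Top2a, a topoisomerase of dividing cells, had 10.5 ± 3.23 TPM with CpG and 3.57 ± 1.14 TPM without and Cdk1, the mitotic kinase, 8.63 ± 2.33 TPM with CpG and 3.496 ± 0.803 TPM without (SD, n = 7 and 5). Mki67, the proliferation marker, rose by 0.48 ± 0.09 (adjusted p = 0.00151), with CpG values from 6.13 to 14.2 TPM.

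Of 30 tested ribosome biogenesis genes, 28 rose and none fell, with a median of 0.65. In 26 of the 30, every CpG library lay above every unstimulated one, against 827 of all 11838 genes tested. Nop56, a core protein of small nucleolar particles, lay between 84.7 and 100.2 TPM in the CpG libraries (median 89.5), against 40.1, 40.5, 41.1, 41.2 and 42.3 TPM in the unstimulated libraries. Both groups of Nop56 values were narrow and well apart. Ncl, nucleolin, had 222 ± 16.9 TPM with CpG and 116 ± 4.54 TPM without, Npm1, nucleophosmin, 576 ± 55.6 TPM with CpG and 381 ± 19.7 TPM without and Dkc1, which makes pseudouridine, 36.7 ± 5.502 TPM with CpG and 15.3 ± 1.88 TPM without (SD, n = 7 and 5). The ribosomal proteins themselves moved little: of 26 tested, 4 rose and none fell, with a median of 0.11. Of 25 nucleotide synthesis genes, 16 rose and 1 fell. Ctps, which makes CTP, rose by 1.55 ± 0.11 (adjusted p = 2.52e-06), Tyms, thymidylate synthase, by 1.41 ± 0.15 (adjusted p = 4.1e-05), Umps, of pyrimidine synthesis, by 0.70 ± 0.10 (adjusted p = 0.00021) and Cad, its first enzyme, by 0.68 ± 0.09 (adjusted p = 0.000203). Among cyclins and growth regulators, 10 of 23 rose and 7 fell; Batf and Irf4, partner transcription factors of activated lymphocytes, rose by 1.53 ± 0.09 (adjusted p = 7.15e-07) and by 1.11 ± 0.09 (adjusted p = 5.62e-06). Beside these rises, 19 measured B cell genes summed to 620 to 945 TPM with CpG (median 845) and 537 to 762 TPM without (median 643). The B cell genes went both ways, with 6 rises and 5 falls of 16 tested and a median of 0.08, so the sum does not give the B cell content; their part in these results was not tested.

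Genes that supply amino acids rose as a group. Of 25 tested ATF4 targets and amino acid genes, 23 rose and none fell, with a median of 0.69. Atf4, the transcription factor of amino acid shortage, lay between 299 and 403 TPM in the CpG libraries (median 369), against 169.6, 211, 212, 235 and 264 TPM in the unstimulated libraries. Its targets Chac1, which breaks down glutathione, and Trib3, a pseudokinase gene, rose by 1.75 ± 0.21 (adjusted p = 8.07e-05) and by 1.31 ± 0.27 (adjusted p = 0.00267). The leucine importer gene Slc7a5 had 31.2 ± 3.56 TPM with CpG and 8.601 ± 2.42 TPM without and the arginine importer gene Slc7a2 535 ± 151 TPM with CpG and 162 ± 59.7 TPM without (SD, n = 7 and 5). The cystine importer gene Slc7a11 rose by 0.59 ± 0.08 (adjusted p = 0.000297). Of 13 arginine and polyamine genes, 8 rose and 3 fell. The polyamine genes Odc1 and Srm rose by 1.21 ± 0.08 (adjusted p = 2.52e-06) and by 1.38 ± 0.10 (adjusted p = 2.89e-06), while the mitochondrial arginase gene Arg2 had 99.5 ± 7.23 TPM with CpG and 146 ± 31.97 TPM without and fell by 0.58 ± 0.07 (adjusted p = 0.000125). Nos2, the inducible nitric oxide synthase, rose by 1.22 ± 0.29 (adjusted p = 0.00636); its CpG values were 79.01 and 86.1 TPM in cells labelled Lum-/-, 10.6 and 9.46 TPM in those labelled Bgn-/- and 27.4 to 35.9 TPM in wild type, against 36.2, 9.79 and 4.103 to 12.8 TPM in the unstimulated libraries of those labels. In the libraries labelled Bgn-/- the log2 difference was 0.03. Arg1, the cytosolic arginase, rose by 1.12 ± 0.34 (adjusted p = 0.0218), a call lost without any of 3 single libraries, at 0.92 without the untreated library labelled Bgn-/-, 1.00 without the lumican-alone library labelled Lum-/- and 0.99 without the wild-type library given CpG and no protein. With the 2 left-out libraries put back, the Arg1 difference turned to -0.62. The endoplasmic reticulum chaperones gave 6 rises and 1 fall of 20, and 14 rises without the wild-type untreated library.

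Cytokine and chemokine genes rose in part. Of 22 tested cytokine genes 12 rose and 1 fell, with a median of 0.64, and of 22 chemokine genes 12 rose and none fell. With the 2 left-out libraries put back 6 chemokine genes rose, without the genotype block 5, and in wild type alone 7. Tnf, the first cytokine of macrophage activation, lay between 218 and 413 TPM in the CpG libraries (median 339), against 144, 149, 170.3, 197 and 238 TPM in the unstimulated libraries, a log2 difference of 0.96 ± 0.14, adjusted p = 0.000259. Il6, a cytokine of the acute phase, lay between 7.72 and 15.8 TPM in the CpG libraries (median 13.6), against 2.27, 2.67, 2.68, 4.6003 and 6.68 TPM in the unstimulated libraries, a log2 difference of 1.57 ± 0.20, adjusted p = 0.000117. No CpG library overlapped an unstimulated one in Il6, while in Tnf the lowest CpG library lay below the highest unstimulated one. Il12b, the shared subunit of IL-12 and IL-23, rose by 0.79 ± 0.19 (adjusted p = 0.00749) but stayed under 10 TPM. Ptgs2, a prostaglandin synthase gene, had 62.2 ± 22.2 TPM with CpG and 20.3 ± 6.02 TPM without, Ccl4, a chemokine gene, 157 ± 53.3 TPM with CpG and 57.2 ± 13.3 TPM without and Ccl3 393 ± 119 TPM with CpG and 222 ± 35.3 TPM without (SD, n = 7 and 5). Ccl5, a chemokine of T cells, rose by 0.49 ± 0.16 (adjusted p = 0.0274), a call lost without any of 4 libraries, at 0.43 to 0.47. Tnfsf9, a co-stimulatory ligand, rose by 1.36 ± 0.13 (adjusted p = 2.14e-05), Cd40, a receptor for T cell help, by 0.86 ± 0.10 (adjusted p = 7.32e-05) and Cd83 by 1.19 ± 0.09 (adjusted p = 3.28e-06). Cd80 and Cd86, the B7 ligands of T cells, had 16.02 ± 2.22 TPM with CpG and 18.3 ± 1.99 TPM without and 27.1 ± 4.63 TPM with CpG and 24.8 ± 3.58 TPM without, neither called.

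Feedback genes of the signalling pathways rose too. Of 24 tested NF-kB subunits and feedback genes, 19 rose and 1 fell, with 12 rises in wild type alone. Nfkb2 lay between 148 and 171 TPM in the CpG libraries (median 158), against 118, 123, 123, 125 and 136 TPM in the unstimulated libraries. Traf1 had 111 ± 19.3 TPM with CpG and 59.4 ± 12.9 TPM without and Nfkb1 158 ± 15.1 TPM with CpG and 126 ± 9.65 TPM without (SD, n = 7 and 5). The survival genes Bcl2a1b and Bcl2a1d rose by 0.85 ± 0.13 (adjusted p = 0.000526) and by 1.26 ± 0.21 (adjusted p = 0.000714); they are near-identical copies, so the split between them is uncertain. Rel rose by 0.24 ± 0.07 (adjusted p = 0.0187), and without the lumican-alone library labelled Lum-/- it was not called, at 0.24. Of 27 MAP kinase and AP-1 feedback genes, 14 rose and 3 fell. The phosphatase gene Dusp2 had 7.74 ± 0.529 TPM with CpG and 3.07 ± 0.642 TPM without and Dusp4 25.5 ± 4.596 TPM with CpG and 12.1 ± 2.54 TPM without (SD, n = 7 and 5). Of 24 SOCS, JAK and STAT genes, 9 rose and 4 fell; Socs3, which restrains IL-6 signalling, had 139 ± 46.3 TPM with CpG and 57.6 ± 13.3 TPM without and Stat5a 33.3 ± 2.998 TPM with CpG and 17.8 ± 2.44 TPM without (SD, n = 7 and 5).

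Interferon-stimulated genes were higher with CpG, with levels that spread widely between genotype labels in both groups. All 41 tested members had a positive difference, and 30 were called. The count rests on few libraries: it was 17 without the lumican-alone library labelled Lum-/-, 18 without both the wild-type untreated library and the CpG library labelled Lum-/- with no protein (260/230 ratio 0.13), 4 with the 2 left-out libraries put back, 4 without the genotype block and 8 in wild type alone. Isg15, a ubiquitin-like antiviral protein, was at 410.5 and 322 TPM with CpG in cells labelled Lum-/-, against 160.0 TPM there without. In cells labelled Bgn-/- it was at 81.9 and 75.9 TPM with CpG, against 55.2 TPM without. In wild type it was at 298, 214 and 109.6 TPM with CpG, against 60.8, 101 and 56.1 TPM without. CpG was higher within each label, by 1.16 ± 0.25, adjusted p = 0.00324. Ifi205, an interferon-induced gene of a family of close copies, rose by 2.01 ± 0.24 (adjusted p = 7.2e-05) and Ifit1 by 0.97 ± 0.28 (adjusted p = 0.0162). Ifit2 and Ifit3 had 44.4 ± 34.95 TPM with CpG and 19.1 ± 12.7 TPM without and 97.4 ± 76.1 TPM with CpG and 48.5 ± 34.8 TPM without (SD, n = 7 and 5), neither called. Cxcl10, an interferon-induced chemokine, rose by 1.02 ± 0.27 (adjusted p = 0.0114), and not without the lumican-alone library labelled Lum-/-, at 0.91.

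Cholesterol synthesis genes rose, while LXR targets and efflux genes fell. Of 24 tested genes of sterol synthesis, 19 rose and none fell, and leaving out any 1 library left 19 rises. In wild type alone 5 rose, against 23 replication and 25 ribosome biogenesis genes in the same fit. Idi1, an enzyme of isoprenoid synthesis, lay between 69.8 and 119 TPM in the CpG libraries (median 84.03), against 17.4, 33.8, 36.6, 42.8 and 70.4 TPM in the unstimulated libraries. Its levels in cells labelled Lum-/- were highest in both groups, at 119 and 107 TPM with CpG and 70.4 TPM without, and the lowest value was that of the wild-type untreated library. Hmgcs1, an early enzyme of the pathway, had 91.7 ± 20.2 TPM with CpG and 55.5 ± 19.8 TPM without and Cyp51, a later one, 66.9 ± 14.9 TPM with CpG and 34.6 ± 15.8 TPM without (SD, n = 7 and 5). Srebf2, the regulator of the pathway, rose by 0.42 ± 0.09 (adjusted p = 0.0035). Of 16 fatty acid genes, 6 rose and 2 fell; Fasn, fatty acid synthase, rose by 0.72 ± 0.20 (adjusted p = 0.0156). Of 16 tested LXR targets and efflux genes, 12 fell and 2 rose, and 6 fell without the genotype block or in wild type alone. Cyp27a1 (chromosome 1, 74713574 to 74737892, plus strand), which makes 27-hydroxycholesterol, lay between 2.01 and 4.51 TPM in the CpG libraries (median 2.91), against 12.2, 13.3, 18.1, 20.5 and 22.9 TPM in the unstimulated libraries, a log2 difference of -2.18 ± 0.18, adjusted p = 8.48e-06, and no CpG library reached the lowest unstimulated one. Abcg1, a cholesterol exporter, fell by 0.56 ± 0.06 (adjusted p = 2.49e-05), and Apoe, which carries the exported lipid, by 0.30 ± 0.06 (adjusted p = 0.00232). Abca1, the other main exporter, had 126 ± 22.6 TPM with CpG and 118 ± 18.3 TPM without and was not called. The lipid carrier genes Fabp4 and Fabp5 fell by 1.14 ± 0.08 (adjusted p = 2.23e-06) and by 0.65 ± 0.06 (adjusted p = 1.6e-05).

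Lysosomal genes fell together, by small amounts. Of 31 tested, 25 fell and 1 rose, with a median of -0.30, and leaving out any 1 library left 23 to 26 falls, while 13 fell in wild type alone. Ctsd, cathepsin D, lay between 3608 and 4215 TPM in the CpG libraries (median 4099.9), against 4307, 4945, 5219.9, 5244 and 5724 TPM in the unstimulated libraries (-0.31 ± 0.05, adjusted p = 0.000695). The CpG libraries were tight and all below the unstimulated ones. Lamp1, a membrane protein of lysosomes, had 988 ± 46.7 TPM with CpG and 1275 ± 88.6 TPM without and Tfeb, the factor that drives lysosomal genes, 19.2 ± 3.43 TPM with CpG and 30.96 ± 3.66 TPM without (SD, n = 7 and 5). Atp6v0d2, a subunit of the proton pump, fell by 0.91 ± 0.14 (adjusted p = 0.000461). Engase, which trims free glycans, was 1 of the 20 largest falls, and whether its product works in lysosomes was not tested. Engase had 6.06 ± 1.14 TPM with CpG and 28.2 ± 6.53 TPM without and fell by 2.03 ± 0.15 (adjusted p = 3.86e-06). Psap, the precursor of lipid-degrading cofactors, fell by 0.44 ± 0.05 (adjusted p = 7.43e-05), with 4516 ± 510.0 TPM with CpG and 6323 ± 872 TPM without (SD, n = 7 and 5). After median-of-ratios scaling 21 of the 31 fell, and the 6 genes named here were still called lower.

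Markers of resident large peritoneal macrophages fell as well. Of 17 tested, 10 fell and 1 rose, with a median of -0.41, and 6 fell in wild type alone. The list summed to 33519 to 38257 TPM with CpG and 38477 to 45277 TPM without, most of it Lyz2. Gata6, the factor that keeps these cells' identity, had 5.03 ± 0.988 TPM with CpG and 8.297 ± 1.17 TPM without and fell by 0.65 ± 0.07 (adjusted p = 3.57e-05). Adgre1, the F4/80 antigen, fell by 0.29 ± 0.09 (adjusted p = 0.0251), but was not called without the wild-type CpG library with no protein or without that with lumican, at -0.27 in each, nor after scaling, at -0.24. Thbs1, thrombospondin, fell by 0.93 ± 0.16 (adjusted p = 0.00084) and Vsig4, a complement receptor, by 0.86 ± 0.13 (adjusted p = 0.000442). Lyz2, lysozyme, lay between 29231 and 33688 TPM in the CpG libraries (median 31061), against 33859.9, 35332, 36149.7, 37208 and 38548 TPM in the unstimulated libraries (-0.24 ± 0.05, adjusted p = 0.00526), and after scaling it was not called, at -0.18 (adjusted p = 0.0803). Thbd, thrombomodulin, is not a member of this list and was 1 of the 20 largest falls. Thbd lay between 1.43 and 3.37 TPM in the CpG libraries (median 2.095), against 6.26, 7.69, 10.4, 12.9 and 13.3 TPM in the unstimulated libraries. It fell by 1.87 ± 0.18 (adjusted p = 1.72e-05). Inhibitory receptors gave 10 falls and 3 rises of 22: Cd300a fell by 1.16 ± 0.13 (adjusted p = 5.27e-05), Cd300lb by 0.59 ± 0.08 (adjusted p = 0.000295) and Siglecg, a sialic acid receptor also found on B cells, by 1.88 ± 0.14 (adjusted p = 3.14e-06). Of 23 scavenger and uptake receptors, 9 fell and 6 rose; Cd93 fell by 1.39 ± 0.10 (adjusted p = 2.92e-06), while Msr1 rose by 0.57 ± 0.10 (adjusted p = 0.000735) and Marco, not called, averaged 2114 TPM with CpG and 2079 TPM without. Of 18 MHC class II and presentation genes, 8 rose and 4 fell, with 1 rise when the 2 left-out libraries were put back. H2-DMa, which loads peptides, fell by 0.81 ± 0.14 (adjusted p = 0.000834) and H2-Ab1 rose by 0.33 ± 0.06 (adjusted p = 0.00111). H2-Aa and H2-Eb1, at 0.22 each, were not called (adjusted p = 0.0608 and adjusted p = 0.0909). Ciita fell by 0.50 (adjusted p = 0.000973) and H2-DMb1 by 0.46 (adjusted p = 0.0192).

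**Figure D3:**
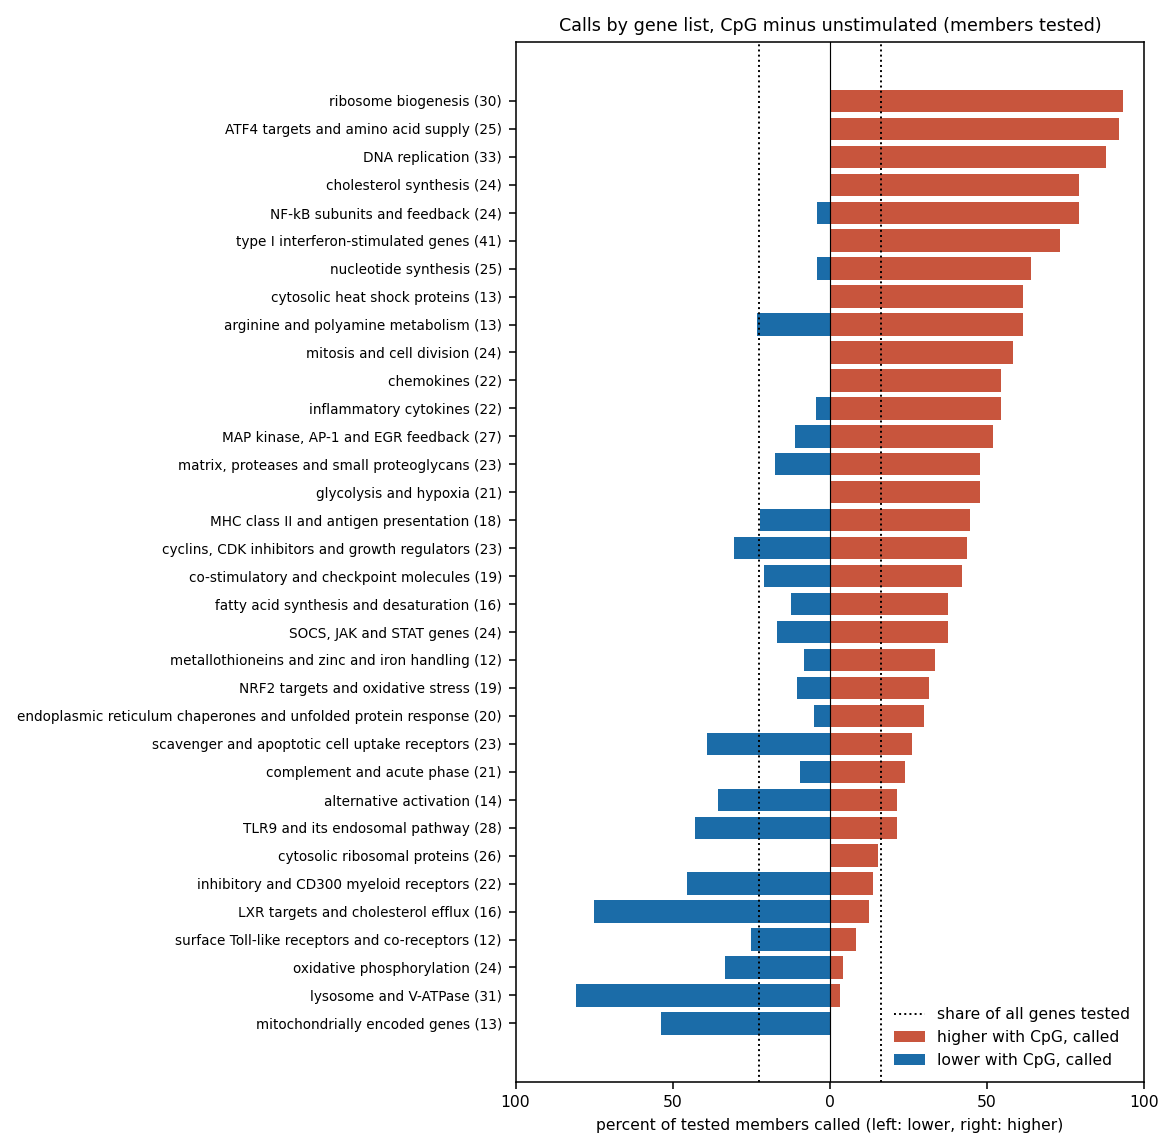
Percent of tested members of 34 gene lists that were called lower (blue, left) or higher (red, right) with CpG, with the number tested in brackets; dotted lines mark the shares of all genes, 22.6% lower and 16.3% higher. Ribosome biogenesis (28 of 30), ATF4 targets (23 of 25) and DNA replication (29 of 33) reach furthest to the right, and lysosome (25 of 31) and LXR genes (12 of 16) furthest to the left.

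B cell and immunoglobulin genes were measured in these CD11b-selected cells, and they split. Of 14 tested genes of plasma cells and immunoglobulins, 11 rose and none fell, with sums of 1320 to 1983 TPM with CpG and 926 to 1241 TPM without. Ighg2c, an IgG constant region, had 8.26 ± 1.82 TPM with CpG and 0.142 ± 0.129 TPM without and rose by 3.01 ± 0.15 (adjusted p = 2.22e-07), and Ighg1 rose by 1.40 ± 0.15 (adjusted p = 3.61e-05). IgG constant regions resemble each other, so the split between them is uncertain. Fcrl5, a receptor of innate-like B cells, had 21.8 ± 4.32 TPM with CpG and 3.48 ± 0.484 TPM without, and Ly6d, a B lineage surface protein, 155 ± 40.03 TPM with CpG and 41.1 ± 14.2 TPM without (SD, n = 7 and 5). Of 16 tested B cell genes, 6 rose and 5 fell. Pax5, the factor of B cell identity, lay between 7.23 and 11.8 TPM in the CpG libraries (median 9.003), against 1.93, 2.33, 3.04, 3.32 and 3.53 TPM in the unstimulated libraries (1.44 ± 0.11, adjusted p = 3.39e-06). In contrast, Ms4a1, which encodes CD20, lay between 5.58 and 15.7 TPM in the CpG libraries (median 9.93), against 16.4, 18.5, 18.9, 19.5 and 20.02 TPM in the unstimulated libraries (-0.78 ± 0.17, adjusted p = 0.00404). Cd79b, a signalling chain of the B cell receptor, lay between 13.9 and 32.99 TPM in the CpG libraries (median 26.6), against 31.3, 46.5, 55.2, 66.7 and 68.2 TPM in the unstimulated libraries (-1.04 ± 0.19, adjusted p = 0.0015). Fcmr, the IgM receptor, had 4.198 ± 0.764 TPM with CpG and 11.1 ± 1.35 TPM without and fell by 1.19 ± 0.08 (adjusted p = 2.35e-06). Every CpG library was above every unstimulated one in Pax5 and below every one in Ms4a1 and Fcmr. Cd79a fell by 0.32 ± 0.11 (adjusted p = 0.0355), a call lost without any of 8 single libraries, at -0.32 to -0.23, and after scaling, at -0.27. Jchain, of secreted IgM and IgA, and Mzb1, an antibody-folding factor, had 3.46 ± 0.814 TPM with CpG and 4.37 ± 1.395 TPM without and 41.2 ± 7.57 TPM with CpG and 32.4 ± 8.48 TPM without, neither called; after scaling Mzb1 passed, at 0.44 (adjusted p = 0.0385).

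**Figure D4:**
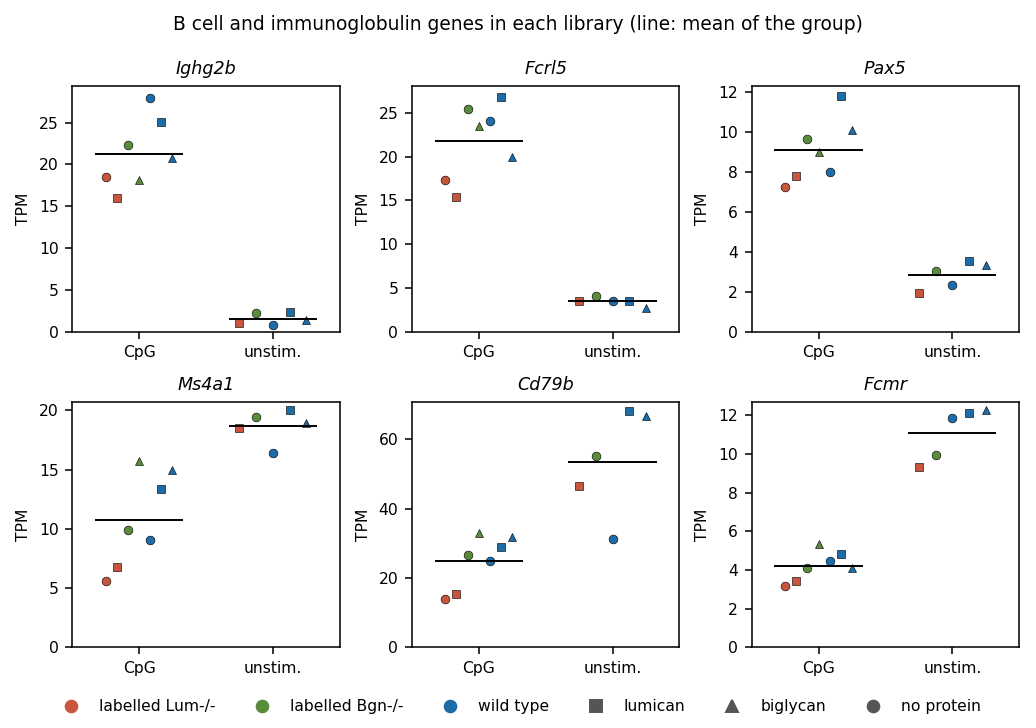
TPM (y axis, from 0) of 6 B cell and immunoglobulin genes in the 7 CpG libraries (left) and 5 unstimulated libraries (right), with a line at each mean; colour gives the genotype label and shape the protein. Ighg2b, Fcrl5 and Pax5 are higher in every CpG library, Ms4a1 and Fcmr are lower in every CpG library, and Cd79b overlaps between the groups.

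The response was tested for differences between the 3 genotype labels. Of 11838 genes, 1 (0.00845%) passed the adjusted threshold of the genotype-by-CpG term in limma, and 375 had an unadjusted p under 0.05. That gene model, Gm7367, named after its values were seen, averaged 1.17 TPM with CpG and 1.33 TPM without. With 1 unstimulated library in each knockout label the test has 6 residual degrees of freedom, and a p that misses the threshold does not show that responses are alike. The largest rises and falls kept their sign in every label by the rule that named them. Il10 differed by 2.72 in the libraries labelled Lum-/-, 3.03 in those labelled Bgn-/- and 3.00 in wild type, and Myc by 1.93 in the libraries labelled Lum-/-, 1.85 in those labelled Bgn-/- and 2.12 in wild type. Cyp27a1 differed by -2.40 in the libraries labelled Lum-/-, -1.45 in those labelled Bgn-/- and -2.41 in wild type, and Slc7a2 by 1.86 in the libraries labelled Lum-/-, 1.03 in those labelled Bgn-/- and 2.09 in wild type.

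**Figure D5:**
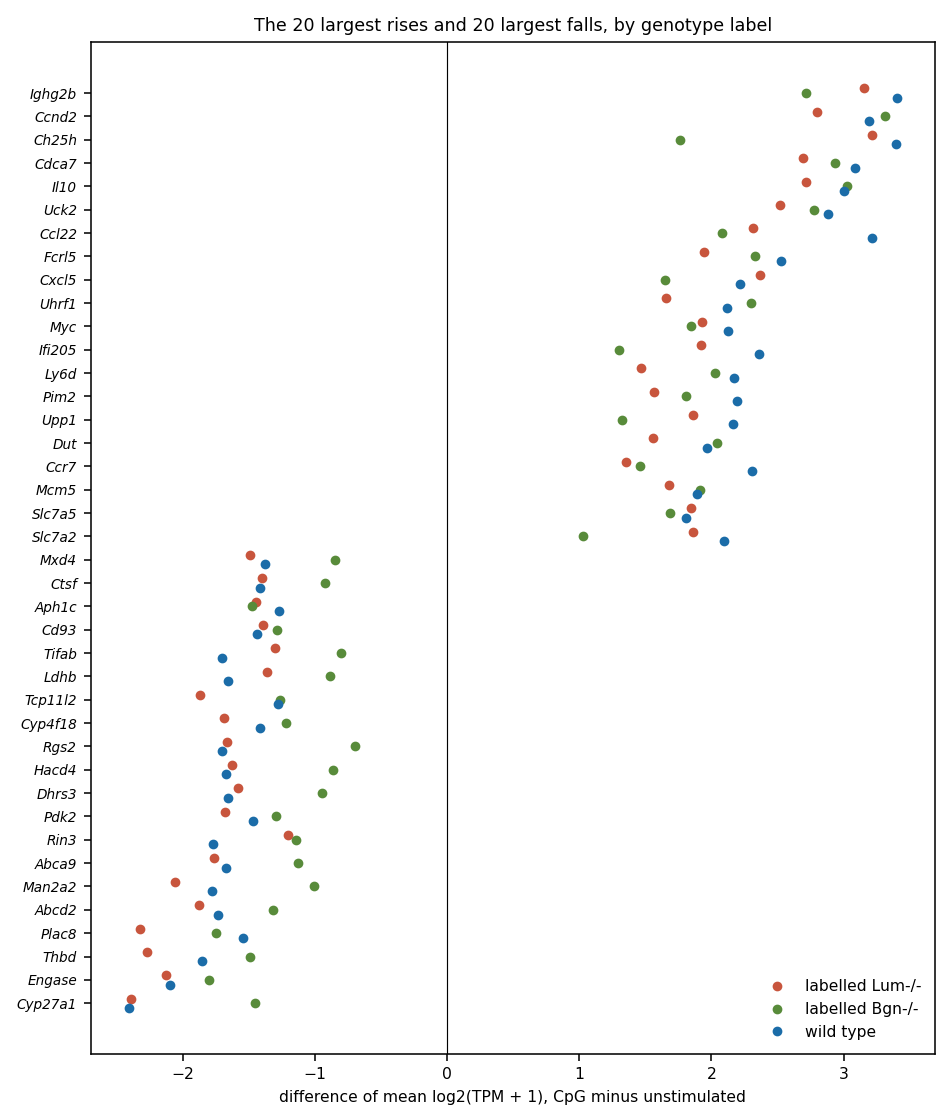
Difference of mean log2(TPM + 1), CpG minus unstimulated (x axis), within each genotype label for the 20 largest rises and 20 largest falls (rows). Every point of a rise lies right of 0 and every point of a fall left of 0, which the choice of genes fixed; Ch25h ranges from 1.76 in libraries labelled Bgn-/- to 3.40 in wild type.

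Energy metabolism, stress and matrix lists gave smaller counts. They stand beside shares of 16.3% higher and 22.6% lower among all genes tested, and no list was tested as a set. Of 21 glycolysis genes 10 rose and none fell: Slc2a1, the glucose transporter GLUT1, had 110.0 ± 11.3 TPM with CpG and 61.9 ± 5.08 TPM without and Hk2, a hexokinase, 22.7 ± 2.91 TPM with CpG and 13.1 ± 1.44 TPM without (SD, n = 7 and 5). Of 24 nuclear genes of oxidative phosphorylation 8 fell and 1 rose, with 5 falls without the lumican-alone library labelled Lum-/-, without the wild-type library given lumican and CpG, or after scaling. Sdhb, of succinate dehydrogenase, fell by 0.27 ± 0.06 (adjusted p = 0.00574). Of 13 mitochondrially encoded genes 7 fell, but 1 to 11 did when 1 library was left out. Of 13 cytosolic heat shock genes 8 rose and none fell; Hspd1, a member whose product works in mitochondria, rose by 0.63 ± 0.06 (adjusted p = 1.32e-05), while the stress-induced Hspa1a had 14.4 ± 3.18 TPM with CpG and 15.3 ± 2.28 TPM without and was not called. Of 19 NRF2 targets 6 rose and 2 fell, and Hmox1, heme oxygenase, rose by 0.56 ± 0.06 (adjusted p = 6.27e-05). Of 23 matrix and protease genes 11 rose and 4 fell, with Tgfbi, a matrix protein of macrophages, at 325 ± 159 TPM with CpG and 111 ± 37.2 TPM without, Mmp9, a gelatinase, at 49.2 ± 11.7 TPM with CpG and 25.6 ± 7.98 TPM without and Mmp8, a collagenase, at 72.7 ± 12.03 TPM with CpG and 153 ± 72.6 TPM without (SD, n = 7 and 5). Tgfbi and Mmp9 rose (adjusted p = 0.000343 and adjusted p = 0.000243), and Mmp8 fell (adjusted p = 0.00438). The zinc importer gene Slc39a14 rose by 1.56 ± 0.12 (adjusted p = 3.63e-06) and the metallothionein gene Mt2 by 1.64 ± 0.40 (adjusted p = 0.00764). Of 21 complement and acute-phase genes 5 rose and 2 fell, with 2 to 6 rises when 1 library was left out.

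The 7 CpG libraries were also set against the 7 LPS libraries matched for genotype and protein (LPS at 100 ng/mL for 6 h, a ligand of TLR4). The comparison shares its CpG libraries with the one above, so values are given side by side. Of 11518 tested genes, 10228 (88.8%) were called in limma with the pair as block, 8721 (75.7%) higher and 1507 (13.1%) lower with CpG. The typical gene was 0.70 higher on the log2 scale (median). Median-of-ratios scaling brought this to 0.01, with 4547 genes higher and 4453 lower. Of the interferon-stimulated genes, all 41 were lower with CpG than with LPS, also after scaling. Il6 lay at 7.72 to 15.8 TPM with CpG (median 13.6), against 2542 to 3515 TPM with LPS (median 3279), a log2 difference of -7.90 ± 0.15, adjusted p = 7.84e-10. Tnf lay at 218 to 413 TPM with CpG (median 339), against 3549 to 6808 TPM with LPS (median 4268), and Cxcl10 at 11.2 to 79.3 TPM with CpG (median 30.7), against 1318 to 3879 TPM with LPS (median 2292). Every CpG library was below every LPS library in these 3 genes. Of 24 cytokine genes, 20 were lower with CpG, and 22 after scaling; Il10 was an exception, at 15.8 to 20.997 TPM with CpG (median 19.2), against 5.87 to 11.5 TPM with LPS (median 7.65) (1.21 ± 0.08, adjusted p = 1.67e-07). Growth lists ran the other way. With CpG, 30 of 30 ribosome biogenesis genes, 32 of 33 replication genes and 24 of 24 cholesterol synthesis genes were higher. After scaling, 27, 27 and 18 were higher and 1, 4 and 5 lower, in that order. Myc lay at 19.1 to 29.1 TPM with CpG (median 25.3), against 3.13 to 7.98 TPM with LPS (median 5.23), a log2 difference of 2.09 ± 0.08, adjusted p = 7.32e-09. Ccnd2 lay at 17.1 to 29.01 TPM with CpG (median 22.9), against 16.6 to 27.7 TPM with LPS (median 20.9), a difference of 0.14 ± 0.13, adjusted p = 0.329. Mki67 ran against the replication genes, at 6.13 to 14.2 TPM with CpG (median 11.5), against 31.98 to 70.5 TPM with LPS (median 47.9). Of 23 inhibitory and CD300 receptor genes, 13 were higher and 7 lower with CpG, and 10 were higher and 11 lower after scaling. Among those higher, Cd300lb lay at 82.1 to 134 TPM with CpG (median 93.4), against 2.94 to 5.09 TPM with LPS (median 4.53), Lair1, an inhibitory collagen receptor, at 36.96 to 50.8 TPM with CpG (median 44.5), against 1.68 to 3.02 TPM with LPS (median 2.38) and Vsir, a checkpoint ligand, at 45.96 to 109.7 TPM with CpG (median 68.1), against 3.64 to 5.803 TPM with LPS (median 4.41). Gpx1, a glutathione peroxidase, lay at 461 to 747 TPM with CpG (median 623), against 31.4 to 46.01 TPM with LPS (median 42.5). The lysosome list was higher with CpG than LPS in 28 of 31 members, but after scaling 12 were higher and 12 lower.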

How the data were processed

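RNA of CD11b+ peritoneal cells was sequenced as stranded libraries on an Illumina instrument, per the labels' protocols. The deposited values are TPM per transcript, made by the authors; kallisto 0.44.0, bcl2fastq 1.8.4 and build GRCm38 are named in the submitters' processing notes. TPM are shares of a library, so a few abundant genes shift all others. The table held 89562 transcripts, 6774 of them without a gene name; 5423 of these were matched to GENCODE vM21 and 1351 left out, and the TPM of the rest were summed to 23544 genes. The depth per library is an estimate from low values and does not enter a test.

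Genes that averaged 1 TPM or more were tested on log2(TPM + 1) with limma 3.58.1 (R 4.3.3; moderated with trend), with genotype as block and Benjamini-Hochberg adjustment over all genes tested; a call is an adjusted p under 0.05. Fold changes are on this scale and understate changes of low genes. Values after ± are SDs for TPM and SEs for log2 differences. CpG minus LPS used the 7 matched pairs as block. On simulated data for CpG minus unstimulated with 11838 genes, 164 of 200 changed genes were recovered, with 14 false calls. The simulation changed only these 200 genes, with independent noise around each gene's mean and no shift between genotypes. It therefore does not give the recovery or the error rate of the real test. Gene coordinates are those of GENCODE vM21 on GRCm38.

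The members, gene lists and tests were chosen with earlier results of these data known. The text names genes by a rule: the stated receptors and targeted genes; among called genes at 10 TPM or more with the same sign in 3 genotype labels, the 20 largest rises and falls, the 10 rises and 10 falls of smallest p and the 10 largest TPM changes; the first 4 and the 3 most changed members of each list; and 8 genes each way against LPS. Replicate numbers in the groups follow accession order and pair nothing; 5 pairs matched for genotype label and protein were an alternative. The other alternatives were the pseudocount, the filter, scaling, quantile normalization, the most abundant transcript, the block, protein as covariate, the libraries in the fit and leaving out each library.

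Some genes that the rule names are not reported here.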

Additional observations from a re-analysis of the deposited data

Results flagged for a closer look

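Among 289 groups of 5 or 7 values of the named genes, 12 had a library far from the others of its group by Dixon's criterion, and chance flags about 1 in 20 groups. The wild-type untreated library accounted for 7 of them. Without a stimulus it was highest in Adgre1 (948.7 TPM, the others 645 to 674), Batf (23.2 TPM, the others 17.2 to 18.1), Mmp8 (281 TPM, the others 112 to 141), Nfkb1 (142 TPM, the others 118 to 123), Srm (30.2 TPM, the others 17.3 to 21.02) and Unc93b1 (709.8 TPM, the others 465 to 519), and lowest in Traf1 (37.5 TPM, the others 61.0 to 70.1). The lumican-alone library labelled Lum-/- was highest among unstimulated libraries in Lum (1.17 TPM, the others 0 to 0.228) and Nos2 (36.2 TPM, the others 4.10 to 12.8). Among CpG libraries, Arg1 was highest in the library labelled Lum-/- with no protein (67.2 TPM, the others 7.204 to 24.3). Ctsd was lowest in the library labelled Lum-/- with lumican (3608 TPM, the others 3983 to 4215). Of the 7 CpG libraries, only the one labelled Bgn-/- given biglycan and CpG had Ly6g above 0 (0.109 TPM).

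The response of Gm7367 differed between genotype labels in the genotype-by-CpG term (limma adjusted p = 0.0278), with log2 differences of -2.79 in libraries labelled Lum-/-, 1.53 in those labelled Bgn-/- and 0.00 in wild type.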

How the results depend on the processing

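The count of called genes stayed within 1.5 times of 4608 in every alternative but wild type alone, where 1823 were called (854 higher, 969 lower) with fewer libraries. Leaving out 1 library gave 3476 to 4929 called genes, 1596 to 2147 higher and 1880 to 2782 lower; the lowest was without the lumican-alone library labelled Lum-/- and the highest without the wild-type untreated one. The labels carry no replicate numbers to pair by. With the 5 pairs matched for genotype label and protein as block (10 libraries), 3870 genes were called. With the 2 left-out libraries put back, 4207 genes were called, 38 of the 4608 calls changed sign, and Ccl2, Arg1 and Fcgr1 turned to -0.28, -0.62 and -0.10; the cause was not tested. With the most abundant transcript of each gene 4047 were called, and 70 calls changed sign. Scaling moved CpG minus LPS to 4547 higher and 4453 lower. Without both the wild-type untreated library and the CpG library labelled Lum-/- with no protein, chosen after seeing the data, 4582 were called. Low genes have the least precise TPM.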
